A study of Mus musculus with 14 samples.

Results

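Cdk6, Mecom and Jmjd1c are genes known as targets of MLL fusion proteins in leukemia, and the peaks called around them were taken from genome-wide maps of the MLL1 complex. All peaks of 10 lists that lay in 3 windows of the mouse genome (build mm9) were used, namely chr5:3300000-3560000 for Cdk6 (260 kb), chr3:29830000-30440000 for Mecom (610 kb) and chr10:66530000-66740000 for Jmjd1c (210 kb). They numbered 619 of the 532629 peaks in all lists, with 406 at Cdk6, 35 at Mecom and 178 at Jmjd1c. The windows also reach towards neighbouring genes, which in the order of the RefSeq table were Fam133b beside Cdk6, Egfem1 and Actrt3 beside Mecom, and Reep3 and Nrbf2 beside Jmjd1c. No gene annotation of build mm9 was used here, so peaks could not be placed in promoters, exons or introns, and none was assigned to a gene beyond its window.

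Chromatin immunoprecipitation followed by sequencing (ChIP-seq) had been carried out for MLL1, WDR5 and dimethylation of histone H3 at lysine 4 (H3K4me2). One cell model was MAF9, mouse bone marrow cells transduced with the fusion gene MLL-AF9, which received either DMSO or MM-401 at 20 µM for 2 days. The other consisted of MAF9-transduced cells of genotype MLL1 flox/flox, ER-cre+/-, exposed for 2 days to EtOH or to 400 nM 4OHT, the tamoxifen metabolite that switches the Cre recombinase on. All 4 groups thus carried MLL-AF9, and both EtOH and 4OHT cells carried the floxed alleles and Cre. There was 1 library per condition and antibody, MLL1 had libraries for DMSO and MM-401 alone, and the sources used here gave neither strain nor age. The 10 lists held 8525 to 105136 peaks each, as positions without height, score or read count. Sequencing depth is therefore unknown, an absent peak is one that was not called, and no difference between conditions could be set against replicate error or tested. The MLL1 antibody recognises the C-terminal part of MLL1, which the fusion protein lacks, so MLL-AF9 itself was not mapped here, and loss of Mll1 under 4OHT could not be checked from these lists.

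MLL1 is a histone methyltransferase that works in a complex with WDR5, RbBP5, Ash2L and DPY30 and methylates H3K4, a modification found at active promoters and enhancers. The compound MM-401 keeps WDR5 from docking onto MLL1. MLL fusion proteins such as MLL-AF9 keep the N-terminal part of MLL1 with its CXXC domain, which binds unmethylated CG dinucleotides, and recruit elongation factors and DOT1L in place of the lost methyltransferase. Cdk6 is a cyclin-dependent kinase that drives cells through G1 and blocks myeloid differentiation. Mecom encodes EVI1, a zinc finger transcription factor of hematopoietic stem cells and of aggressive leukemias, and Jmjd1c encodes a Jumonji-domain protein of the family of H3K9 demethylases.

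Because the CXXC domain reads CG dinucleotides, the promoter sequences of the 3 genes are shown with each CG in capitals, from 250 bases before to 50 bases after an annotated start (RefSeq, build GRCm38.p6, 5′ to 3′ on the gene's strand). The Cdk6 promoter lies at chr5:3343643-3343942 on the plus strand, the Mecom one at chr3:30509710-30510009 on the minus strand and the Jmjd1c one at chr10:67126838-67127137 on the plus strand. These positions belong to GRCm38 and cannot be set against the mm9 peaks.

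Cdk6: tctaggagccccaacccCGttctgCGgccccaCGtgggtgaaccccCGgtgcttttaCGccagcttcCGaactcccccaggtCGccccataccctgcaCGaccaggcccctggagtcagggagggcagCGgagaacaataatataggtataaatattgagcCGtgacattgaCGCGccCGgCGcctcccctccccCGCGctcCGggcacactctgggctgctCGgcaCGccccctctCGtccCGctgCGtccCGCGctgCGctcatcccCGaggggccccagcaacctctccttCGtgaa
Mecom: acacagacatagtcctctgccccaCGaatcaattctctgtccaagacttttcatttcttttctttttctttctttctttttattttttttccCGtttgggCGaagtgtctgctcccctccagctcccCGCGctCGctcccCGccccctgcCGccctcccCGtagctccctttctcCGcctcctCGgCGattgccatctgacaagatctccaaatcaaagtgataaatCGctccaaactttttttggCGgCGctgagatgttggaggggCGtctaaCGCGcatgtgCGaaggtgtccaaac
Jmjd1c: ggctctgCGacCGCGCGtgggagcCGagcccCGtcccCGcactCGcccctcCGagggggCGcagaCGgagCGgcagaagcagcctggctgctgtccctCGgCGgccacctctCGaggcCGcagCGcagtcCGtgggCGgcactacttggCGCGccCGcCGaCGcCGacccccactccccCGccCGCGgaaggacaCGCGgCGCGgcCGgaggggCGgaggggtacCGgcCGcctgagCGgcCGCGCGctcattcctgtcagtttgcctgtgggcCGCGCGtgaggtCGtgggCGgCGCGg

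The Jmjd1c promoter held 47 CG dinucleotides, the Cdk6 promoter 27 and the Mecom promoter 19, against a median of 7 over 32841 RefSeq mouse promoters of this length. As many as at Jmjd1c were found in 1.44% of all promoters, as many as at Cdk6 in 15.5% and as many as at Mecom in 28.1%. A further annotated start of Mecom had 9 CG dinucleotides and one of Jmjd1c had 13. The letters CCGGAA, a core of ETS-type motifs, occurred on neither strand of these 5 promoters and on either strand of 14.9% of all promoters.

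To ask how far H3K4me2 extended at each gene, peaks of 1 list were joined into a domain when at most 1 kb apart, and the covered length was summed over peaks within the window. The longest H3K4me2 domain was longer at Cdk6 than at Jmjd1c and shortest at Mecom, and this order of the genes was the same in all 4 conditions. Median domain lengths kept the order except under 4OHT, with 2450 bp at Cdk6 and 4500 bp at Jmjd1c. Under MM-401 the medians of these genes were close, 1588 and 1525 bp. The mark covered 37.5 to 49.7% of the Cdk6 window, 21.9 to 25.9% of the Jmjd1c window and 0.594 to 1.07% of the Mecom window. Over the span of the genome covered by peaks, 2568 Mb, it covered 3.54 to 3.92%. Cdk6 and Jmjd1c therefore lay above the genome-wide cover in every list, and Mecom below it.

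The covered length at Cdk6 was 113.8 kb in DMSO, 97.4 kb under MM-401, 129.3 kb in EtOH and 104.5 kb under 4OHT. Both treated libraries were lower than their control, with ratios of 0.856 for MM-401 and 0.808 for 4OHT. The ratios over the whole lists were 0.935 and 0.905, nearer to 1 than those at Cdk6. The control libraries also differed, by 15.5 kb between EtOH and DMSO at Cdk6, close to the 16.4 kb between DMSO and MM-401. At Jmjd1c the covered length was 52.1 kb in DMSO, 48.7 kb under MM-401, 54.4 kb in EtOH and 46.1 kb under 4OHT, giving ratios of 0.935 and 0.847. The MM-401 ratio there equalled that of the whole list, and the 4OHT ratio was below it. At Mecom the values were 6.53 kb in DMSO, 5.80 kb under MM-401, 3.65 kb in EtOH and 3.63 kb under 4OHT. The Mecom ratios were 0.889 and 0.993, and the second rests on a difference of 25 bp, which is 1 step of the grid on which HPeak, the caller of the H3K4me2 lists, places peaks.

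**Figure D1:**
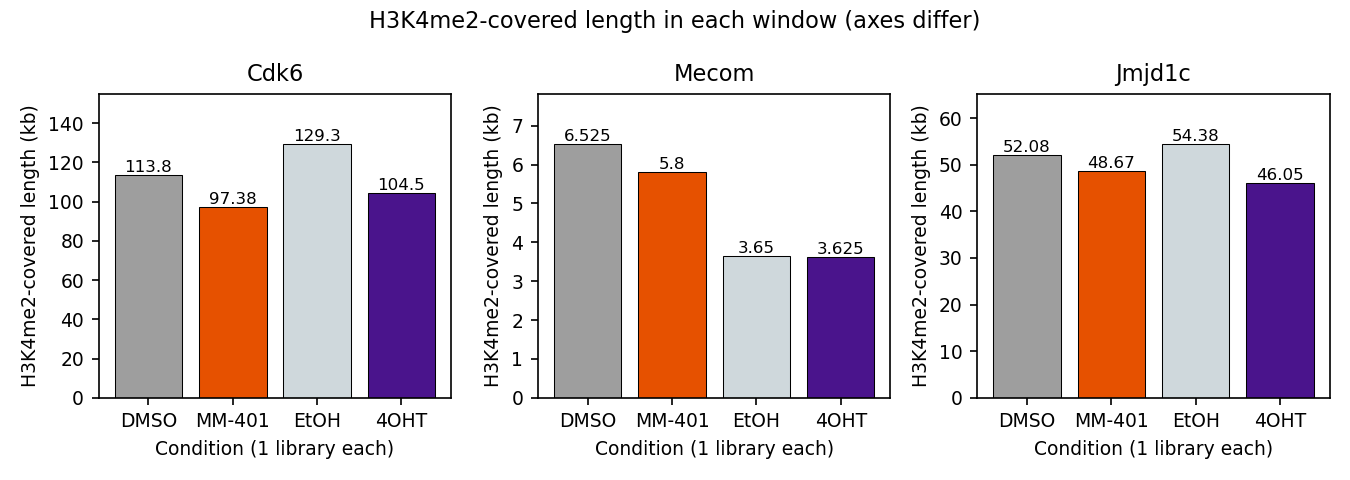
Length covered by H3K4me2 peaks (kb, y axis, starting at 0 and scaled separately for each gene) in DMSO, MM-401, EtOH and 4OHT, 1 library per bar and no error bars. Treated bars were lower than their control at each gene, from 113.8 to 97.4 kb and from 129.3 to 104.5 kb at Cdk6, with a difference of only 25 bp between EtOH and 4OHT at Mecom.

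At Cdk6 the longest domain spanned chr5:3337826-3392975 in DMSO, a length of 55.2 kb. It had nearly the same ends in EtOH, with 56.7 kb, and under 4OHT, with 53.8 kb. Under MM-401 it was interrupted. The list held a domain of 14.9 kb at chr5:3337776-3352650 and one of 38.4 kb at chr5:3354101-3392475, separated by 1450 bp without a call. Of this stretch, chr5:3352651-3354100, peaks covered 1400 bp in DMSO, 1100 bp in EtOH and 1025 bp under 4OHT. Under the 1 kb rule, the shorter longest domain under MM-401 thus came from 1 gap just over the joining distance. The outer ends of the block, 3337776 and 3392475, were close to those in DMSO. Other rules also gave a shorter longest domain under MM-401 than in DMSO. It measured 54700 against 70550 bp when joined at up to 3 kb, and 8850 against 10050 bp without joining. A second domain at chr5:3483026-3508525 measured 25.5 kb in DMSO, 20.9 kb under MM-401, 25.3 kb in EtOH and 20.6 kb under 4OHT. Here both treated lists began later, at 3485976 under MM-401 and 3486001 under 4OHT. In all, DMSO held 17 domains at Cdk6, MM-401 22, EtOH 16 and 4OHT 17, of which 7, 5, 8 and 6 were at least 5 kb long.

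**Figure D2:**
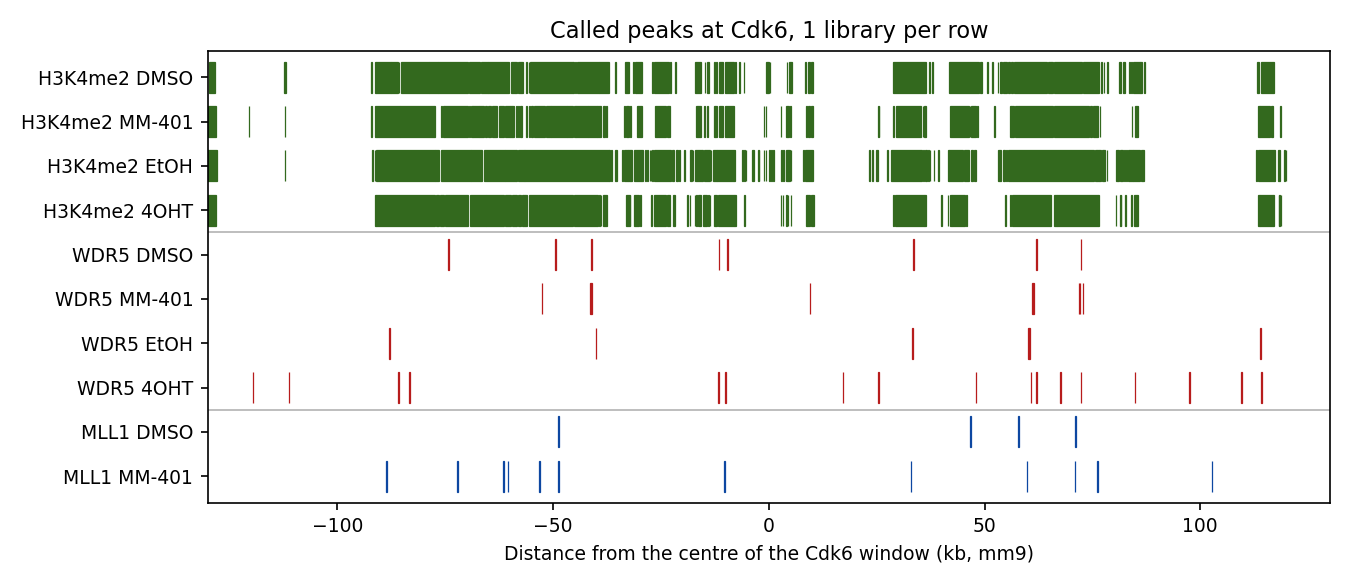
Called peaks in the Cdk6 window by distance from its centre (kb, x axis), with 1 row per library for H3K4me2 (green), WDR5 (red) and MLL1 (blue); each bar is a peak at its called width, and the narrowest are drawn as thin lines. The H3K4me2 block of 55.2 kb in DMSO recurs in EtOH and 4OHT and has a gap of 1450 bp under MM-401, while WDR5 has 8, 7, 5 and 17 peaks and MLL1 4 and 12.

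Peaks were then compared one by one, and a control peak was counted as absent when it shared no base with a peak of the treated list. Of 84 DMSO H3K4me2 peaks at Cdk6, 32 were absent under MM-401, or 38.1% (exact 95% interval 27.7 to 49.3%), against 30.5% of all DMSO H3K4me2 peaks. Of 104 EtOH peaks, 57 were absent under 4OHT, or 54.8% (44.7 to 64.6%), against 37.2% of all EtOH peaks. The share of the whole list lay inside the first interval and outside the second. These intervals cover the counting of peaks only and take neighbouring peaks as independent, although peaks of 1 domain are fragments of the same stretch. In the opposite direction, 11 of 89 MM-401 peaks lay outside DMSO peaks, against 19.9% over the list, and 6 of 76 peaks under 4OHT lay outside EtOH peaks, against 21.2%. Both shares, 12.4% (6.33 to 21.0%) and 7.89% (2.95 to 16.4%), were below those of the lists. The first interval held its list share and the second did not. Between the control lists, 14 of 84 DMSO peaks at Cdk6 were absent in EtOH, or 16.7%, against 30.6%. More of the DMSO peaks at Cdk6 were thus absent under MM-401 than in EtOH, 32 against 14 of 84. The EtOH list also covered more of this window, 49.7% against 37.5% under MM-401. Whether cover accounts for the lower count in EtOH was not tested.

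The absent H3K4me2 peaks at Cdk6 were narrow. Their median width under MM-401 was 188 bp against 788 bp for overlapped ones, and 200 bp against 825 bp under 4OHT. None of the 24 DMSO peaks over 1000 bp wide was absent under MM-401, and none of the 21 such EtOH peaks under 4OHT, which allows shares of up to 14.2% and 16.1%; over the whole lists the shares were 0.37% and 0.0704%. Of peaks up to 200 bp wide, 17 of 24 were absent under MM-401 (70.8%, 48.9 to 87.4%) and 35 of 42 under 4OHT (83.3%, 68.6 to 93.0%), against 68.2% and 71.8% over the lists. Narrow peaks were thus mostly absent at Cdk6 and elsewhere, and both list shares lay within the intervals. Among peaks wider than 200 and up to 1000 bp, 15 of 36 were absent under MM-401 (41.7%, 25.5 to 59.2%) against 25.8% over the list. Under 4OHT 22 of 41 such peaks were absent (53.7%, 37.4 to 69.3%) against 29.7%. The whole-list share lay just inside the interval for MM-401 and below it for 4OHT. In bases, 80.5% of the DMSO length was also covered under MM-401 and 77.8% of the EtOH length under 4OHT, against 81.4% and 80.8% over the lists. In the other direction, 94.0% of the MM-401 length and 96.3% of the 4OHT length at Cdk6 lay in peaks of the control. This direction was not computed over the whole lists, where the treated lists also covered less than their control (ratios of 0.935 and 0.905).

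The widest DMSO H3K4me2 peaks at Cdk6 without overlap under MM-401 were chr5:3484226-3485225, chr5:3511076-3511700 and chr5:3485476-3485950. The first was 1000 bp wide, lay 750 bp from the nearest MM-401 peak and was called in EtOH and 4OHT. The second, 625 bp wide and 2375 bp from an MM-401 peak, was also called in both lists of the flox cells, whereas the third was called in EtOH and not under 4OHT. The widest EtOH peaks without overlap under 4OHT were chr5:3516276-3517000 (725 bp), chr5:3483176-3483725 (550 bp) and chr5:3434501-3434975 (475 bp). The first and second were called in DMSO and not under MM-401, and the third was called in both MAF9 lists. In the reverse direction, the widest MM-401 peak outside DMSO peaks measured 175 bp (chr5:3548476-3548650) and was also called in EtOH, and the widest 4OHT peak outside EtOH peaks measured 275 bp (chr5:3410976-3411250) and was called in no other list. Treated peaks outside those of their own control were thus narrower than the widest control peaks absent.

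Joined over the 4 lists, H3K4me2 at Cdk6 formed 97 regions. Of these, 18 were called in all 4 conditions, with a median width of 2275 bp, and 55 in 1 condition, with a median of 150 bp. The bases covered in all 4 lists at once summed to 84.6 of 140.3 kb, or 60.3%. Both control lists and neither treated list held 8 regions, the widest of which was chr5:3516126-3517150 with 1025 bp. No region at any of the 3 genes was held by both treated lists and neither control list. Regions were joined in the windows only, so no whole-list share stands beside these counts, here or at the other genes. Both treated lists also covered less than their control over the whole lists, with ratios of 0.935 and 0.905. At Cdk6 5 regions were called in DMSO, EtOH and 4OHT but not under MM-401, the widest being chr5:3510976-3512100 with 1125 bp, and 2 in all lists but 4OHT.

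WDR5, the subunit that MM-401 separates from MLL1, had 8 peaks at Cdk6 in DMSO and 7 with MM-401, and 5 in EtOH and 17 with 4OHT. The 4OHT count stood apart from the other 3. The whole WDR5 lists held 14481 and 17273 peaks in DMSO and MM-401 and 34587 and 41054 in EtOH and 4OHT, so the ratio of 4OHT to EtOH over all peaks was 1.19. Per Mb, the Cdk6 window held 30.8, 26.9, 19.2 and 65.4 WDR5 peaks in the same order, against 5.64, 6.73, 13.5 and 16.0 over the genome span. All 4 densities were above those of the genome. The 4OHT peaks at Cdk6 were 75 to 200 bp wide with a median of 125 bp, and the EtOH peaks were 125 to 500 bp wide with a median of 200 bp.

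The 8 DMSO WDR5 peaks all lay on H3K4me2 of the same condition. One, chr5:3388751-3388950, was overlapped under MM-401, by a peak at chr5:3388626-3389000. The other 7 were absent (87.5%, 47.4 to 99.7%), against 59.9% over the list. A peak at chr5:3502251-3502425 lay 25 bp from the MM-401 peak chr5:3502151-3502225, and one at chr5:3491876-3492125 lay 450 bp from the MM-401 peak chr5:3491051-3491425. Both of these overlapped a 4OHT peak, as did the DMSO peak chr5:3418351-3418500. The peak chr5:3463326-3463675, the widest in DMSO with 350 bp, overlapped an EtOH peak and had no MM-401 peak within 23800 bp. The remaining 3, chr5:3355701-3355900, chr5:3380526-3380600 and chr5:3420301-3420525, had no overlap in any other list, and the last lay 250 bp from a 4OHT peak. The other MM-401 peaks were chr5:3377376-3377500, chr5:3439451-3439525, chr5:3501776-3501850 and chr5:3502701-3502925. All 7 MM-401 peaks lay on H3K4me2, and 1 overlapped a DMSO peak.

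None of the 5 EtOH WDR5 peaks at Cdk6 was overlapped under 4OHT, while 81.5% of all EtOH WDR5 peaks were absent there. The exact interval of the absent share at Cdk6, from 47.8%, held that of the list. They lay at chr5:3342076-3342275, chr5:3389851-3390050, chr5:3463151-3463400, chr5:3490126-3490625 and chr5:3543851-3543975, all on EtOH H3K4me2. The fourth, 500 bp wide and inside a 20000 bp H3K4me2 peak, lay 75 bp from the 4OHT peak chr5:3490701-3490775, and the last lay 50 bp from the 4OHT peak chr5:3544026-3544200. For these 2 of the 5, the treated list thus held a peak next to the EtOH peak without a shared base. Of the 17 4OHT peaks, 10 lay on 4OHT H3K4me2, and 7 did not. The widest were chr5:3491951-3492150, chr5:3527326-3527525, chr5:3477951-3478125 and chr5:3544026-3544200. Next, tied at 150 bp, came chr5:3318701-3318850, chr5:3344026-3344175 and chr5:3346601-3346750, of which the last pair lay on 4OHT H3K4me2. Of these, chr5:3527326-3527525 and chr5:3318701-3318850 lay in H3K4me2 of no condition, 11725 and 16900 bp from the nearest 4OHT H3K4me2 peak.

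When WDR5 peaks of all lists were joined at distances of up to 2 kb, Cdk6 held 21 sites. One, chr5:3490126-3492150 in the second H3K4me2 domain, was called in all 4 conditions, and 14 were called in 1. Sites at chr5:3388626-3390050 and chr5:3501776-3502925 were called in 3 conditions, without 4OHT and without EtOH. These 3 sites lay inside the 2 long H3K4me2 domains. WDR5 sites were joined in the windows only, so no whole-list share stands beside these counts.

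MLL1 had 4 peaks at Cdk6 in DMSO and 12 under MM-401. The DMSO MLL1 list was not made with HPeak, unlike the other 9, so its comparison with MM-401 is also one of callers, and the whole lists held 8525 and 27345 MLL1 peaks. The DMSO peaks were chr5:3381193-3381392, chr5:3476578-3476760, chr5:3487730-3487878 and chr5:3501012-3501162, all on DMSO H3K4me2. The first and the last overlapped the MM-401 peaks chr5:3381251-3381400 and chr5:3500901-3501050, in the first and the second H3K4me2 domain. The widest MM-401 peaks were these 2, chr5:3368426-3368625 and chr5:3462926-3463050. Several peaks tied next at 100 bp, among them chr5:3341326-3341425. Of the 12 MM-401 peaks, 10 lay on MM-401 H3K4me2. No DMSO MLL1 peak overlapped a DMSO WDR5 peak, and the nearest pair was 592 bp apart.

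At Mecom all 10 lists together held 35 peaks in 610 kb. H3K4me2 had 7 peaks in DMSO and 7 with MM-401, and 4 in EtOH and 6 with 4OHT, or 6.56 to 11.5 per Mb against 35.6 to 41.0 per Mb over the genome span. The longest domain lay near the high end of the window and was called in all 4 conditions. It spanned chr3:30405776-30409075 in DMSO (3300 bp) and measured 3250 bp under MM-401, 3100 bp in EtOH and 3000 bp under 4OHT. Regions around chr3:30354251-30355475 (1225 bp in DMSO) and chr3:30349226-30350050 (825 bp in DMSO) were likewise called in every condition, with lengths of 650 bp and 200 bp in EtOH. The region chr3:29911426-29912125 was called in both MAF9 lists, with 700 bp in DMSO and 250 bp under MM-401, and in neither list of the flox cells. Of 6 regions at Mecom, 3 held a peak of every list. In the one around chr3:30349226-30350050 the EtOH and 4OHT peaks shared no base. The bases covered in all 4 lists at once made up 2.98 of 6.93 kb, or 43.0% of the joined length.

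Of the 7 DMSO H3K4me2 peaks at Mecom, 1 was absent under MM-401, chr3:30229726-30229825, a peak of 100 bp called in no other list. Of the 4 EtOH peaks, 1 was absent under 4OHT, chr3:30349601-30349800, and it lay 25 bp from the 4OHT peak chr3:30349401-30349575. With so few peaks the exact intervals were wide, from 0.36 to 57.9% for MM-401 and from 0.63 to 80.6% for 4OHT. None of the 7 MM-401 peaks lay outside DMSO peaks (interval to 41.0%, whole list 19.9%). Outside EtOH peaks lay 3 of the 6 4OHT peaks (11.8 to 88.2%, whole list 21.2%) and 3 of the 7 DMSO peaks (9.90 to 81.6%, whole list 30.6%). Each of these 5 intervals held the share of the whole list. The 3 peaks found under 4OHT and not in EtOH overlapped peaks of both MAF9 lists.

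**Figure D3:**
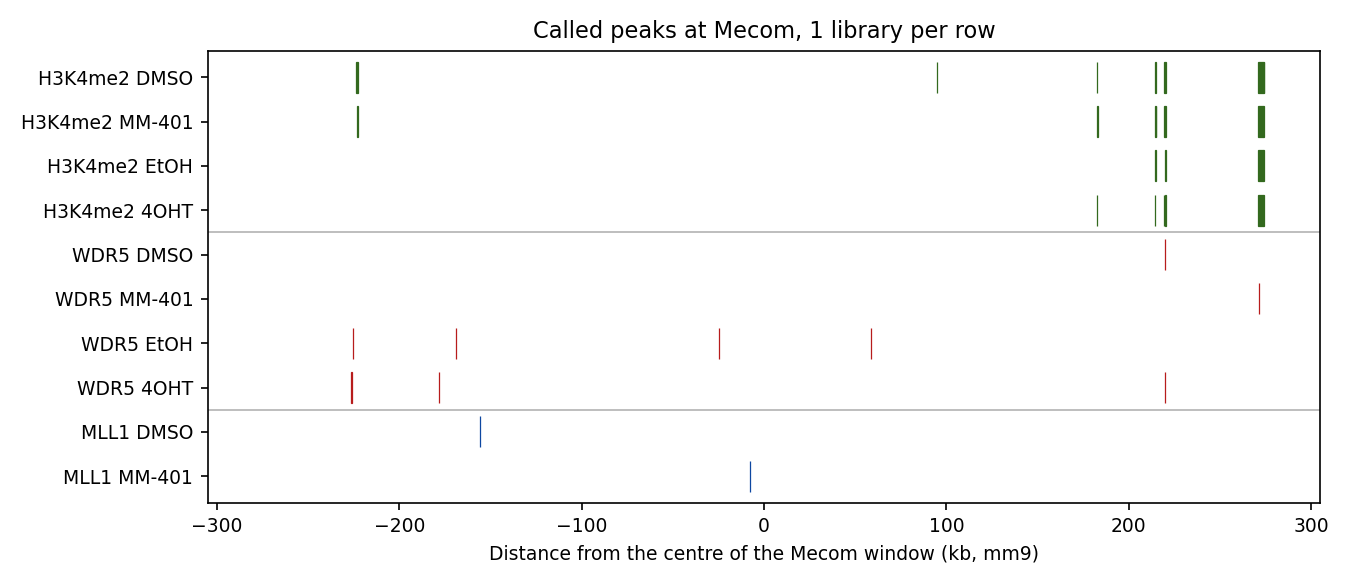
Called peaks in the Mecom window by distance from its centre (kb, x axis), 1 row per library for H3K4me2 (green), WDR5 (red) and MLL1 (blue); bars are peaks at their called width, and narrow ones appear as thin lines. H3K4me2 lies mostly at the right end, where the longest domain has 3000 to 3300 bp in all 4 rows, and WDR5 peaks of EtOH fall outside H3K4me2.

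WDR5 had 1 peak at Mecom in DMSO and 1 with MM-401, and 4 in EtOH and 3 with 4OHT. The DMSO peak, chr3:30355001-30355100, lay in H3K4me2 of all 4 conditions, and so did the MM-401 peak, chr3:30406426-30406550, which fell in the longest domain 51325 bp away. None of the 4 EtOH peaks lay on EtOH H3K4me2, and the nearest such peak was 156025 bp off. They were chr3:29909426-29909550, chr3:29965826-29965925, chr3:30110151-30110350 and chr3:30193451-30193575. The 4OHT peaks were chr3:29908651-29908750, chr3:29956801-29956950 and chr3:30354601-30354675, and the last lay 100 bp from 4OHT H3K4me2 and 325 bp from the DMSO WDR5 peak. Over the whole lists, 11.3% and 12.3% of WDR5 peaks lay outside H3K4me2 in DMSO and MM-401 and 45.7% and 52.9% in EtOH and 4OHT. The Mecom intervals for EtOH (from 39.8%) and 4OHT (from 29.2%) held these shares. MLL1 had 1 peak in DMSO, chr3:29979259-29979439, and 1 under MM-401, chr3:30127176-30127275. Neither lay on H3K4me2 of any condition, and they were 147736 bp apart.

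At Jmjd1c H3K4me2 had 35 peaks in DMSO and 31 with MM-401, and 40 in EtOH and 41 with 4OHT. The longest domain began at almost the same place in all lists. Under the 1 kb joining rule it spanned chr10:66557176-66572650 (15.5 kb) in DMSO and 15.4 kb under MM-401, and chr10:66557426-66579825 (22.4 kb) in EtOH and 21.6 kb under 4OHT. The gap to the next domain was 1575 bp in DMSO and 1625 bp under MM-401, so the difference between cell models again rests on 1 gap over the joining distance. The order turned with that distance: the longest domain under 4OHT was the shortest of the 4 when peaks were not joined (6075 bp, against 7050 bp in DMSO, 7175 bp with MM-401 and 8075 bp in EtOH) and when joined at up to 3 kb (21575 bp, against 22300, 21750 and 24975 bp). A second domain at chr10:66662701-66674375 measured 11.7 kb in DMSO, 11.6 kb under MM-401, 12.4 kb in EtOH and 11.0 kb under 4OHT. Its length in the 4 lists differed by less than that of the first.

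**Figure D4:**
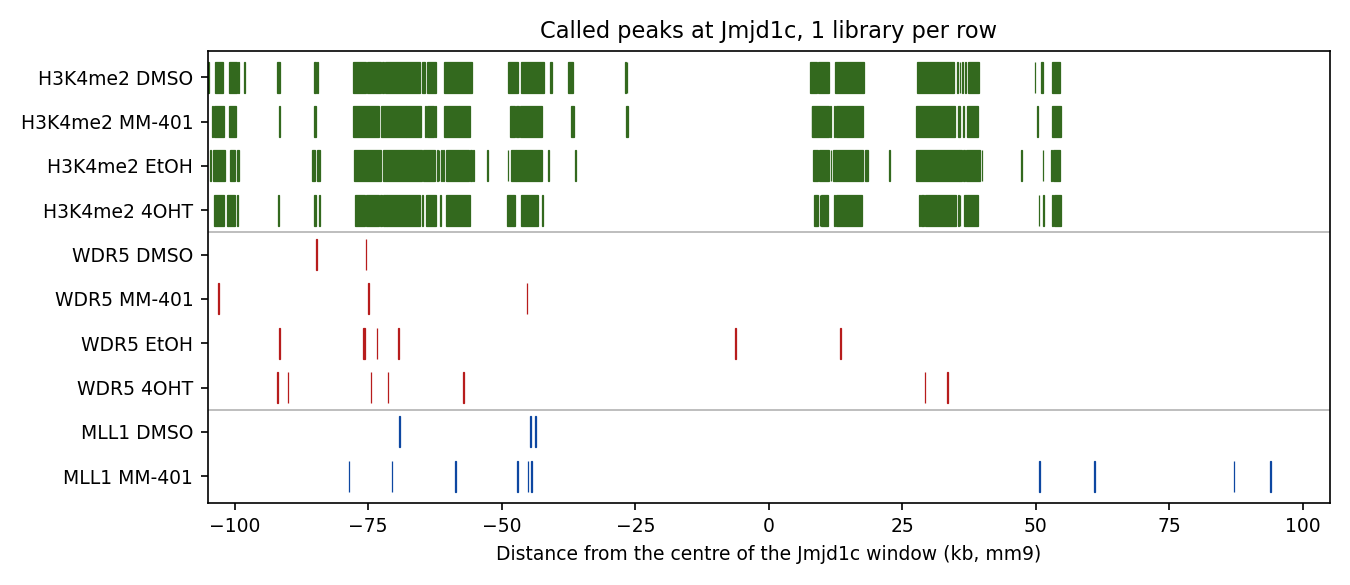
Called peaks in the Jmjd1c window by distance from its centre (kb, x axis), with 1 row per library for H3K4me2 (green), WDR5 (red) and MLL1 (blue); bars are peaks at their called width, and narrow ones appear as thin lines. Joined at 1 kb, the longest H3K4me2 domain measures 15.5 and 15.4 kb in DMSO and MM-401 and 22.4 and 21.6 kb in EtOH and 4OHT. This order turns for 4OHT without joining or at 3 kb. WDR5 has peaks inside this domain in all 4 rows, without a base shared between rows.

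Of 35 DMSO H3K4me2 peaks at Jmjd1c, 11 were absent under MM-401 (31.4%, 16.8 to 49.3%), and of 40 EtOH peaks, 18 were absent under 4OHT (45.0%, 29.3 to 61.5%). Both intervals held the share of the whole list. The absent peaks were narrow, with medians of 200 and 162 bp against 1438 and 1188 bp for overlapped ones, and none of the 15 DMSO and 13 EtOH peaks over 1000 bp was absent. Of the MM-401 peaks 6 of 31 lay outside DMSO peaks (19.4%, whole list 19.9%), and of the 4OHT peaks 7 of 41 lay outside EtOH peaks (17.1%, whole list 21.2%). Of the DMSO peaks 9 of 35 were absent in EtOH (25.7%, whole list 30.6%). These shares were near those of the lists. In bases, 86.9% of the DMSO length was covered under MM-401 and 79.5% of the EtOH length under 4OHT. The widest peaks absent were chr10:66685976-66686325 under MM-401 (350 bp, called in EtOH and not under 4OHT) and chr10:66653176-66653600 under 4OHT (425 bp, called in EtOH alone). Of 43 joined regions, 11 were called in all 4 conditions and 25 in 1. The bases covered in all 4 lists at once made up 39.3 of 62.9 kb, or 62.5%. The region chr10:66597401-66598450, of 1050 bp, was called in both MAF9 lists only.

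WDR5 had 2 peaks at Jmjd1c in DMSO and 3 with MM-401, and 6 in EtOH and 7 with 4OHT. Over the lists, 59.9% of DMSO WDR5 peaks were absent under MM-401 and 81.5% of EtOH ones under 4OHT. At Jmjd1c no peak of one list overlapped a peak of another. Nevertheless, peaks of all 4 conditions gathered in the first part of the longest domain, at chr10:66559101-66565775 when joined at 2 kb. The DMSO peak there, chr10:66559551-66559650, lay 350 bp from the MM-401 peak chr10:66560001-66560175, 200 bp from the EtOH peak chr10:66559101-66559350 and 800 bp from the 4OHT peak chr10:66560451-66560550. It missed DMSO H3K4me2 by 25 bp. The remaining peaks of this site were chr10:66561601-66561700 and chr10:66565676-66565775 in EtOH and chr10:66563626-66563750 under 4OHT. Outside it, WDR5 was called at chr10:66550276-66550375 in DMSO, and at chr10:66531801-66532050 and chr10:66589676-66589775 under MM-401. EtOH had further peaks at chr10:66543351-66543425, chr10:66628676-66628775 and chr10:66648301-66648425. Under 4OHT they lay at chr10:66542976-66543175, chr10:66544951-66545050, chr10:66577751-66577900, chr10:66664176-66664325 and chr10:66668326-66668475. Of the 10 joined sites, 1 was called in all 4 conditions and 8 in 1, again without a whole-list share for comparison.

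MLL1 had 3 DMSO peaks at Jmjd1c, chr10:66565761-66565939, chr10:66590298-66590477 and chr10:66591180-66591441, all on DMSO H3K4me2. The first overlapped the EtOH WDR5 peak chr10:66565676-66565775 at the end of the shared WDR5 site. Under MM-401 there were 10 MLL1 peaks, of which 5 lay on MM-401 H3K4me2, and none overlapped a DMSO peak. The nearest, chr10:66590551-66590650, was 73 bp from the DMSO peak chr10:66590298-66590477. Peaks at chr10:66589851-66589950, chr10:66587876-66588000, chr10:66576251-66576400 and chr10:66564376-66564450 also lay on H3K4me2. Those at chr10:66556376-66556500, chr10:66685576-66685750, chr10:66695901-66696000, chr10:66722001-66722125 and chr10:66728901-66728975 did not. The 2 lists thus placed MLL1 near one another between chr10:66589851 and chr10:66591441 without a shared base.

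The WDR5 peaks of the 3 windows were then counted together. Of 11 DMSO WDR5 peaks, 10 were absent under MM-401 (90.9%, 58.7 to 99.8%), against 59.9% over the list. Of 11 MM-401 WDR5 peaks, 10 lay outside DMSO peaks, against 65.8%. All 15 EtOH WDR5 peaks were absent under 4OHT (exact interval from 78.2%), against 81.5%, and all 27 4OHT peaks lay outside EtOH peaks, against 84.4%. Of the 11 DMSO peaks, 10 were also absent in EtOH, against 65.5%. WDR5 of the 2 control lists thus differed at these genes in as many peaks as DMSO and MM-401 did, and the interval for each of these counts held the whole-list share or, for 4OHT peaks against EtOH, began above it at 87.2%. For MLL1, 6 of 8 DMSO peaks were absent under MM-401 (75%, 34.9 to 96.8%), against 94.7%. Outside DMSO peaks lay 21 of 23 MM-401 peaks (91.3%, 72.0 to 98.9%), against 98.3%. Both MLL1 intervals held the whole-list share. Both overlaps were at Cdk6. The WDR5 peaks were at most 500 bp wide. Among H3K4me2 peaks up to 200 bp wide, 70.8% (MM-401) and 83.3% (4OHT) were absent at Cdk6. At Jmjd1c the shares were 66.7% of 9 peaks (29.9 to 92.5%) and 90.9% of 11 (58.7 to 99.8%). Over the whole lists they were 68.2% and 71.8%. In H3K4me2 peaks wider than 200 and up to 1000 bp, 41.7% and 53.7% were absent at Cdk6, and 45.5% and 50% at Jmjd1c. Whether width accounts for the absent WDR5 peaks was not tested.

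**Figure D5:**
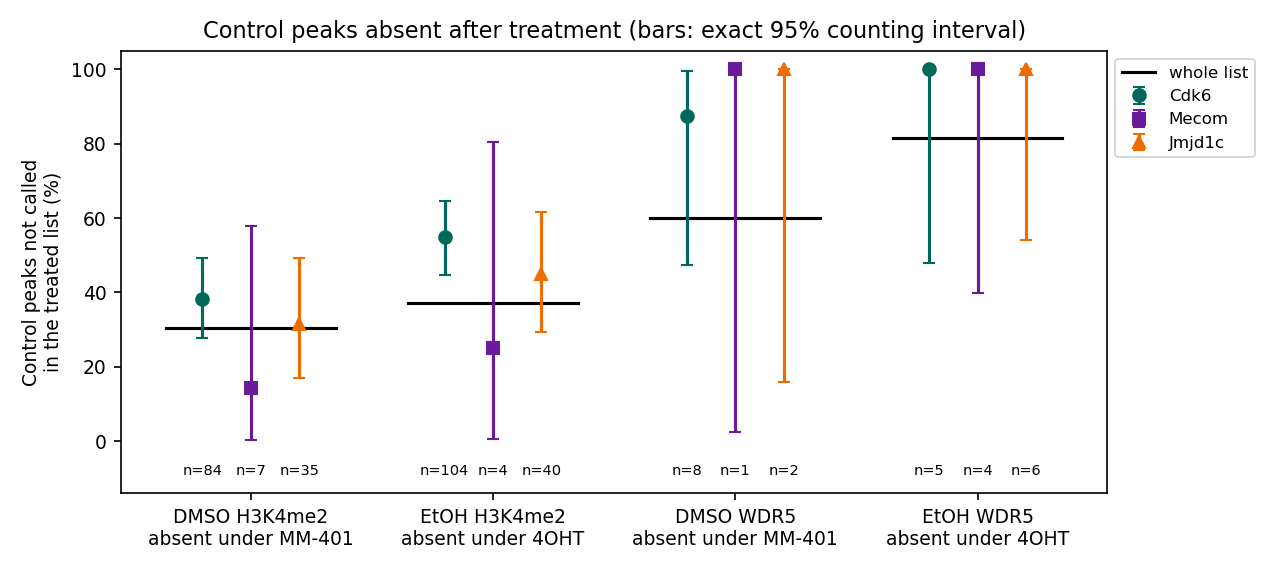
Share of control peaks with no base in a treated peak (%, y axis) for H3K4me2 and WDR5, by gene (symbols; n, number of control peaks), with exact 95% counting intervals as error bars and the whole-list share as a black line. For H3K4me2 the Cdk6 share under 4OHT, 54.8%, lies above the line at 37.2% with its interval, while for WDR5 the genes have 1 to 8 peaks and shares of 87.5 to 100%.

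The complex was finally set against H3K4me2 of its own condition. Outside it lay 1 of 11 WDR5 peaks in DMSO, against 11.3% over the list, and 0 of 11 under MM-401, against 12.3%, which allows up to 28.5%. In EtOH 6 of 15 did, against 45.7%, and under 4OHT 12 of 27, against 52.9%. The 3 windows followed the whole lists in this, with more WDR5 outside H3K4me2 in the flox cells than in MAF9 cells, but Mecom contributed 4 of the 6 EtOH peaks. Of the MLL1 peaks, 1 of 8 in DMSO lay outside H3K4me2 (12.5%, 0.32 to 52.7%), against 48.4%. Under MM-401 8 of 23 did (34.8%, 16.4 to 57.3%), against 57.6%. The first interval held its list share, and the second ended just below its own. None of the 8 DMSO MLL1 peaks overlapped a DMSO WDR5 peak, against 94.4% without WDR5 over the list, and the exact interval of the overlapped share reached 36.9%. By gene, MLL1 lay on H3K4me2 in 4 of 4 DMSO and 10 of 12 MM-401 peaks at Cdk6, in 3 of 3 and 5 of 10 at Jmjd1c, and in neither peak at Mecom. H3K4me2 covered a larger part of the Cdk6 and Jmjd1c windows than of the genome.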

How the data were processed

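The authors deposited 10 peak lists, 1 per ChIP library and without pooling, as positions only (chromosome, start and end), so no count, height or depth was available. The 4 inputs were not analysed here. Per the labels' processing notes, Bowtie and build mm9 were used, and the sources used here gave no thresholds for the HPeak calls. In 9 lists the peaks carried HPeak names and lay on a 25 bp grid, and they were read as 1-based. The deposited DMSO MLL1 list had neither (4.12% of starts on the grid) and was read with 0-based starts. For MLL1 in these cells the study named MACS with a significance cutoff and reported 8525 peaks, the number in this list.

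Peaks touching a window were kept, and overlap meant at least 1 bp shared (Python 3.11.15, numpy 2.4.6, scipy 1.17.1, matplotlib 3.10.9). Shares carry exact Clopper-Pearson 95% intervals. Tested on simulated data, the overlap step called 100% of 6579 peaks correctly. This checked the code only, with a simulated partner placed inside every other DMSO H3K4me2 peak of chromosome 5 and none in the rest. With 1 library per condition and antibody no test was run. Named positions were every WDR5 and MLL1 peak where a list held at most 10 in a window, otherwise the 5 widest, with ties stated. The widest H3K4me2 domains and absences were named too. The genes, windows, width classes and lists were chosen with earlier results of these data known. Other targets of MLL fusions were not analysed here, for want of an mm9 annotation. Promoter sequences came from RefSeq (GRCm38.p6), and no coordinate was converted between builds.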

Additional observations from a re-analysis of the deposited data

Results flagged for a closer look

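In 3 measures the number of called peaks moved in opposite directions in the MAF9 and the Mll1 flox cells. With 1 library per condition none of these differences was tested, and differences of 1 peak are within what a single call can decide. At Cdk6, H3K4me2 peaks numbered 5 more under MM-401 than in DMSO (89 against 84), while the difference of 4OHT minus EtOH was -28 (76 against 104). The covered length was lower after treatment in both, so the number of peaks and their length did not move together under MM-401. WDR5 peaks at Cdk6 differed by -1 for MM-401 minus DMSO (7 against 8) and by 12 for 4OHT minus EtOH (17 against 5). At Jmjd1c, H3K4me2 peaks differed by -4 for MM-401 minus DMSO (31 against 35) and by 1 for 4OHT minus EtOH (41 against 40).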

How the results depend on the processing

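Of 160 values recomputed for 36 results, 25 moved, meaning that a share left its exact 95% interval or that a count, length or ratio differed by over 1.5 times. The other 135 stayed within these limits, which are wide where peaks are few. Shares below are of control peaks overlapped after treatment, with the main value first. With the widest 50% of each list the H3K4me2 shares at Cdk6 were 78.4% instead of 61.9% (MM-401) and 58.7% instead of 45.2% (4OHT), and at Jmjd1c 88.9% instead of 68.6% (MM-401). MLL1 peaks then numbered 2 in DMSO and 4 under MM-401 at Cdk6, and 0 at Mecom and 5 at Jmjd1c under MM-401. When a gap of up to 2 kb was allowed, H3K4me2 shares were 97.6% and 90.4% at Cdk6, 100% for 4OHT at Mecom, and 100% and 90% at Jmjd1c, and WDR5 shares under 4OHT were 60% at Cdk6 and 66.7% at Jmjd1c, both 0 before. The WDR5 shares for MM-401 were then 37.5% instead of 12.5% at Cdk6 and 50% instead of 0 at Jmjd1c, and that for 4OHT at Mecom 25% instead of 0, each within the interval of its 2 to 8 peaks. With 50% of the peak covered, the 4OHT share at Cdk6 was 33.7%. With lists reduced to equal length, the MM-401 share at Mecom was 100%. The longest domain without joining was 10050, 8850, 20000 and 13500 bp at Cdk6 and 7050, 7175, 8075 and 6075 bp at Jmjd1c (DMSO, MM-401, EtOH, 4OHT), and joined at 3 kb it was 102175 bp in EtOH at Cdk6. Orders of the longest domain turned: without joining, MM-401 exceeded DMSO at Jmjd1c and at Mecom (3150 against 3075 bp), and 4OHT at Jmjd1c fell below both MAF9 lists there and at 3 kb (21575 against 22300 and 21750 bp). The longest Cdk6 domain was shorter in treated than in control lists under each rule. The cause of these shifts was not tested, beyond what each rule does by construction. Peaks wholly inside the windows and 0-based starts changed values little. Windows narrowed by 10% at each end gave 8 instead of 10 MM-401 MLL1 peaks at Jmjd1c, and at Mecom a 4OHT H3K4me2 share of 50% instead of 75% and covered-length ratios of 0.792 instead of 0.889 (MM-401) and 1 instead of 0.993 (4OHT). The widest 50% left no DMSO WDR5 peak at Mecom or Jmjd1c, and the MLL1 lists were not reduced because their callers differed. No paired analysis was possible because each condition and antibody had 1 library. Depth is unknown, so peaks not called cannot be told from shallow sequencing.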
